A study of Homo sapiens with 6 samples.

Results

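The human cells of the 25-cycle Drop-seq library were 251 of the 1000 barcodes taken as cells (25.1%, exact Clopper-Pearson 95% interval 22.4 to 27.9%). They were chosen by 2 measured values. A barcode had to be among the 1000 with the largest sum of UMI counts, which is the number of cells on the label, and its human transcripts had to hold 90% or more of that sum. A UMI is a random tag on each captured RNA molecule, so that PCR copies can be counted once. The library came from a mixture of human and mouse myeloma lines, JJN3 and 5TGMG1 in the labels (5TGM1 in the study), captured in droplets on beads whose tags are built of trimers, amplified and read by nanopore sequencing. The series compared capture platforms and PCR cycle numbers with 1 library per group, with Drop-seq of 25, 30 or 35 cycles and 10X Chromium of 30 or 35 cycles, and no sample carried a treatment. The study's text is divided on the human line, because its single-cell methods give JJN3 while a legend and the account of culture give Jurkat, a line from a T cell leukaemia. With 1 library per group no difference was tested, and every interval below is a 95% interval that takes counts or cells as independent. Transcripts of a gene often repeated the same counts, so the intervals of counts summed over transcripts are too narrow.

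The label was checked against lineage markers. Of 14 T cell markers, 11 had a count in the human cells, with 280 counts in all, and of 16 plasma cell markers only MZB1 had one, with 15 counts. The defining plasma cell markers PRDM1 and XBP1 were at 0. SDC1, TNFRSF17, IRF4 and JCHAIN and all immunoglobulin constant genes had no transcript in the matrix of this library. Only 4 of the 16 plasma cell markers had one, and why the others are missing from the matrix is not given. Myeloma lines derive from plasma cells, so the markers with a transcript in the matrix went against the labelled cell type. The cells are called here only human cells of this library.

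T cells read antigen through a receptor of alpha and beta chains, whose variable segments are joined to a constant region encoded by TRAC, TRBC1 or TRBC2. The CD3 chains, encoded by CD3D, CD3E, CD3G and CD247, carry the signal into the cell. Plasma cells instead secrete antibody, and their transcriptomes are known for very large amounts of immunoglobulin RNA. CD1 molecules present lipids and are found on immature thymocytes among other cells.

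The beta chain genes that carry the receptor signal in these cells have near-identical neighbours, so the letters that tell them apart are shown first. Exon 1 of TRBC1 and TRBC2 differed at 7 of 387 bases (98.2% identical). The first 120 bases, from GENCODE release 44 on hg38 (plus strand, chr7:142791694-142791813 for TRBC1 and chr7:142801041-142801160 for TRBC2), are given 5′ to 3′ with the 5 differing bases in capitals.
TRBC1: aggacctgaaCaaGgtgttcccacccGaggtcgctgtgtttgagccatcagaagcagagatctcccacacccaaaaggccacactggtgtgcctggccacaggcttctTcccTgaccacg
TRBC2: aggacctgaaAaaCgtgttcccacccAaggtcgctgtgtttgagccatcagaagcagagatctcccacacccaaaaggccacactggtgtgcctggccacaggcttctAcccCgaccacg
Exon 2 of TRBV12-3 and TRBV12-4, which encodes most of the variable segment, differed at 6 of 298 bases. All 6 lay in the first 120 bases (plus strand, chr7:142560634-142560753 and chr7:142563948-142564067), and the last 120 bases of the exon had 0 differences.
TRBV12-3: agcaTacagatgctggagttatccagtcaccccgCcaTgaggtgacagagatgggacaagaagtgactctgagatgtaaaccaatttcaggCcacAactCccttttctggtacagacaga
TRBV12-4: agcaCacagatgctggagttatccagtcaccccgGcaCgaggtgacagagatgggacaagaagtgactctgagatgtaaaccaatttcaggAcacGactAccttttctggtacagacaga
Counted from 1 at the first base shown, the constant region differences from TRBC1 to TRBC2 were C11A, G14C, G27A, T109A and T113C. A read over a stretch without these letters can be assigned to either gene, so the split of counts within each pair is uncertain. Of the 4 exons of TRBC1 and TRBC2 only exon 1 was compared, and how far whole reads tell them apart was not tested.

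The 251 human cells were shallow. Their counts ranged from 141 to 5859, with a median of 271 and quartiles of 182 and 477. Together they held 122129 counts, 5.28% of the 2311090 counts of the library, and the deepest 25 cells held 41.2% of them. A few barcodes therefore set many of the sums below. The last barcode taken as a cell had 141 counts and the first left out had 140. At the purity limit, the human cells just inside had 90.09, 90.13 and 90.21% human counts and the barcodes just outside had 89.93, 89.90 and 89.89%. The mouse share of the counts of a human cell had a median of 5.16%, and only 8 of the 251 cells had no mouse count. Of the other cells, 590 were mouse, with a median depth of 282.5, and 159 were mixed, with a median of 194.

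**Figure D1:**
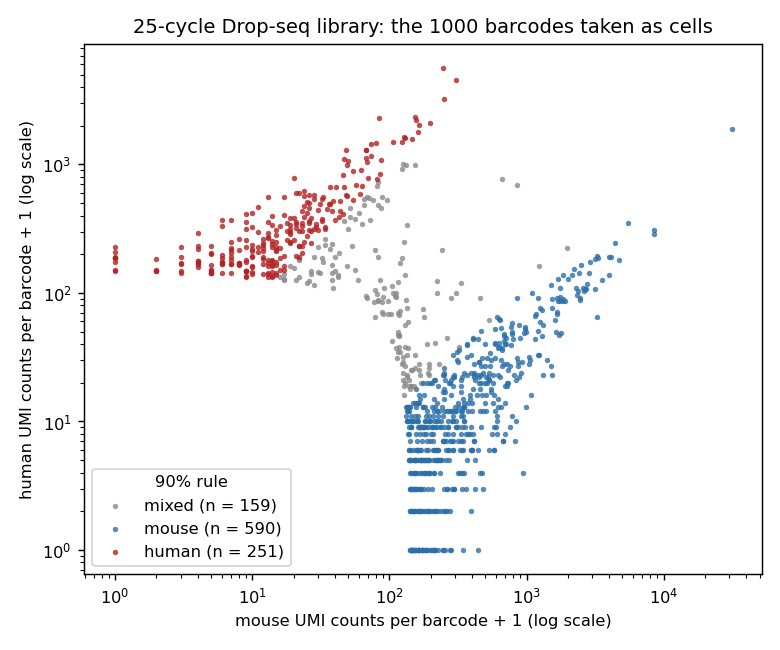
Human against mouse UMI counts (log axes, 1 added) of the 1000 barcodes taken as cells, coloured by the 90% rule. The 251 human barcodes lie at the upper left, next to the 159 mixed barcodes, and the deepest has 5859 counts in all, whereas the deepest mouse barcode has 33160.

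The transcriptome was dominated by the protein synthesis machinery. Of 115245 human counts, 29672 (25.7%, 25.5 to 26.0%) fell on cytosolic ribosomal protein genes, and 83 of 85 such genes had a count. The most abundant gene was RPS19, a protein of the small subunit, with 1234 counts (exact Poisson interval 1166 to 1305) in 74 cells. RPS14 followed with 1229 counts in 58 cells, RPL13A with 1163 in 60 cells, RPL13 with 1092 in 65 cells and RPS15 with 1065 in 66 cells. Ribosomal genes made up 19 of the 25 genes with the most counts, and those 25 genes held 18.0% of the human counts. The others were EEF1A1, which brings aminoacyl-tRNA to the ribosome (875 counts), GAPDH of glycolysis (834), the actin-binding TMSB4X (780), the chromatin-associated PTMA (708) and the mitochondrial MT-CO1 (773) and MT-CYB (511).

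The deposited values are per transcript, and transcripts of a gene often held the same counts. Of 1216 human transcripts with at least 20 counts, 379 (31.2%) had exactly the counts of another transcript in every human cell. RPS19 had 4 transcripts with counts, and its largest held 318 of the 1234. Over all named genes the largest transcript of each held 41.6% of the counts. The mitochondrial genes have 1 transcript each, and by the largest transcript MT-CO1 with 773 counts, MT-CYB with 511, MT-ND4 with 338 and MT-CO2 with 328 came first, ahead of RPL41 with 323 and RPS19 with 318. The order of the ribosomal genes above MT-CO1 thus held for the sums and not for the largest transcripts.

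Detection per cell also put mitochondrial genes first. MT-CO1, a subunit of cytochrome c oxidase, had a UMI in 119 of 251 cells (47.4%, 41.1 to 53.8%). MT-CYB was found in 86 cells (34.3%), MT-CO2 in 80 (31.9%) and MT-CO3 in 78 (31.1%), and RPL41 led the nuclear genes with 75 (29.9%). In mouse cells, which should lack human RNA, MT-CO1 had a human UMI in 67 of 590 (11.4%) and RPS19 in 16 (2.71%, against 29.5% of human cells). The 90% rule used the human share of counts, so a lower detection of human genes in mouse cells follows from how the cells were chosen, and it is given here and below as the background level only.

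**Figure D2:**
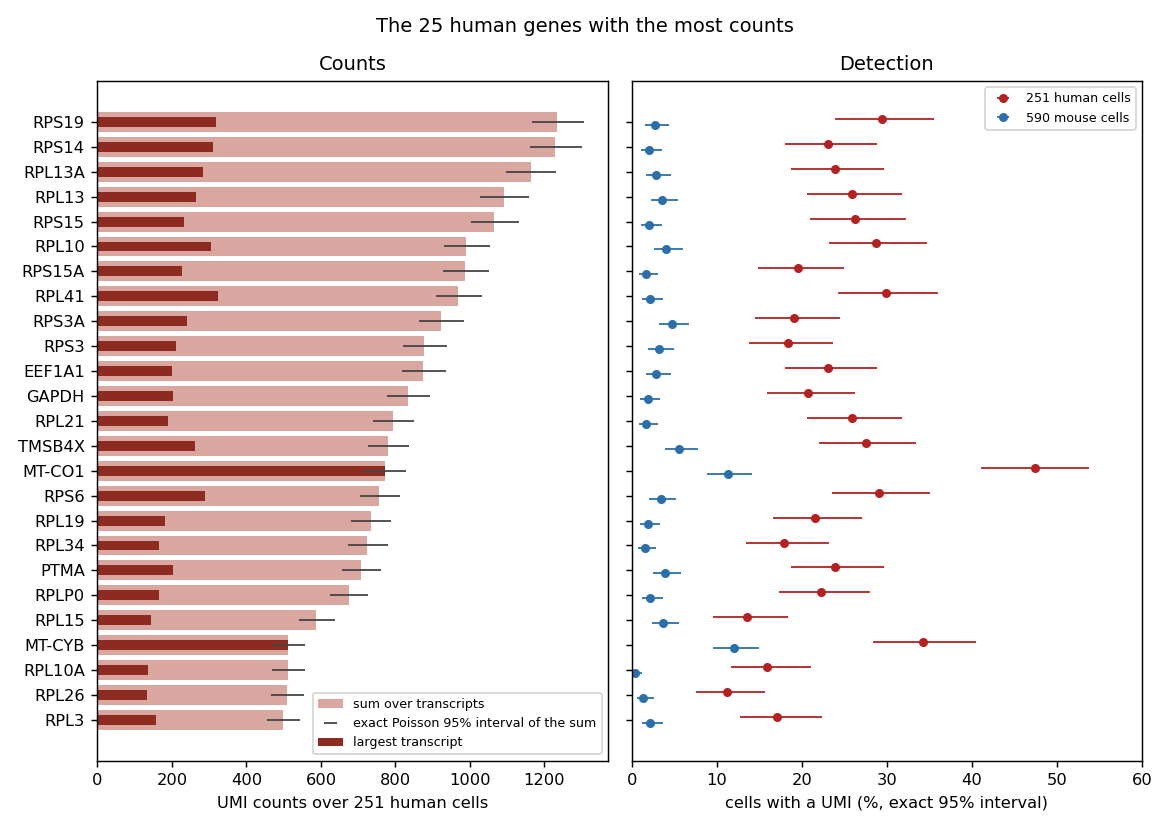
The 25 human genes with the most UMI counts in the 251 human cells. Left, counts summed over transcripts with exact Poisson intervals (pale bars) and counts of the largest transcript (dark bars), which are equal for MT-CO1 (773) and MT-CYB (511) only. Right, percent of 251 human and 590 mouse cells with a UMI, with exact intervals, from 47.4% of human cells for MT-CO1 to 11.2% for RPL26.

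In all, 3827 named genes had a count in the human cells. Of these, 1791 were seen in 1 cell only, 83 in at least 10% of cells and 14 in at least 25%. A further 7.56% of the human counts lay on transcripts that matched no entry of the annotation.

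The counts of many genes were bunched in single cells. Of 438 genes with at least 50 counts, 133 had 50% or more of them in 1 cell. The Fano factor, the variance over the mean, was computed on cells thinned to 200 counts, which left 173 cells and 111 genes with at least 50 thinned counts. It had a median of 10.3, against 1 for random sampling, and of 3.66 with the largest transcript alone. The highest values belonged to CIRBP, a cold-inducible RNA-binding protein (161, with 174 of 188 thinned counts in 1 cell), the angiogenic factor VEGFA (72, with all 72 in 1 cell), RNPS1 of the exon junction complex (69.1), the chaperone DNAJC10 (52.5) and NARF (51). RPL26, ENSG00000255508, EXOSC9, HNRNPA2B1 and EEF1G followed at 49.5, 46.6, 42.9, 39.5 and 39.3. The counts of VEGFA and NARF came from 1 cell each, while RPL26 had a thinned count in 19 cells.

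Genes of energy metabolism included members of both genomes. All 13 mitochondrial-genome coding genes had counts, 2951 in all (2.56% of the human counts), in 209 of 251 cells. Their share of the human counts was 3.93% in mouse cells, 200 of 590 of which had a UMI, and 2.30% outside the cells. MT-CO1 led with 773 counts, followed by MT-CYB with 511, MT-ND4 of complex I with 338 and MT-CO2 with 328. Of 102 nuclear-encoded oxidative phosphorylation genes 78 had counts, 3163 in all in 166 cells, led by ATP5F1A of ATP synthase with 195, COX7A2 with 175 and COX6C with 172. Of 19 glycolytic enzyme genes 11 had counts, and GAPDH supplied 834 of their 1407, which lay in 88 cells. LDHB, a lactate dehydrogenase subunit, had 228 counts, of which 115 lay in 1 cell, and TPI1 had 107 in 17 cells.

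Growth and folding genes were also present. The 13 translation elongation genes all had counts, 2126 in all, led after EEF1A1 by EEF1G (279) and TPT1 (257). Heat shock and folding genes had counts for 17 of 20, led by the cyclophilin PPIA (464 counts in 35 cells), the chaperones HSP90AB1 (410 in 33 cells) and HSPD1 of mitochondria (302 in 26 cells). NPM1, a nucleolar histone chaperone, supplied 443 of the 968 counts of the nucleolar list, in 29 cells, and MYC had none. Of 50 proteasome genes 36 had counts, 1098 in all, with PSMA6 (185) and PSMA4 (114) first.

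Chromatin, cytoskeleton and RNA-binding genes followed the same pattern of a few leading members. Chromatin genes held 2219 counts in 146 cells, with PTMA at 708, HMGB1 at 431, the histone variant H2AZ1 at 328 and HMGN2 at 160. The histone gene H4C3 had 122 counts spread over 43 cells. Cytoskeletal genes held 2537 counts in 161 cells, led by TMSB4X (780), the microtubule regulator STMN1 (424), ACTB (276) and TUBA1B (249). Of 22 splicing and RNA-binding genes 19 had counts, with HNRNPA1 (162) and HNRNPC (154) first. FTH1, the ferritin heavy chain that stores iron, had 273 counts in 34 cells, and FTL, the light chain, had 24 in 8 cells.

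Genes of the dividing cell were spread thinly. S phase genes had counts for 22 of 34, 731 in all in 69 cells, led by the ribonucleotide reductase subunit RRM2 (209 counts in 7 cells), USP1 (111 in 13) and GMNN (75 in 9). G2 and M phase genes had counts for 21 of 35, 736 in all in 68 cells, led by ANP32E (139 in 8 cells), CKS1B (136 in 14) and HMGB2 (90 in 14). No cell was given a phase, because a median of 271 counts leaves most of these genes at 0. Endoplasmic reticulum folding and secretion genes, which serve antibody secretion in plasma cells, had counts for 16 of 24 and held 372 counts in 35 cells, or 0.323% of the human counts. Their leading members were the signal peptidase subunits SPCS2 (67) and SPCS1 (61) and the channel subunit SEC61G (48).

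T cell receptor and CD3 genes held 225 counts (0.195% of the human counts, 0.171 to 0.222%), with a UMI in 41 of 251 cells (16.3%). A count was present for 6 of 11 genes. CD3G had 102 counts (83.2 to 124), but 65 of them lay in 1 cell, the largest transcript held 50 and only 7 cells had a UMI. TRBC1 had 74 counts (58.1 to 92.9) on 1 transcript in 20 cells, with at most 20 in a cell, which made it the most widely detected receptor gene. CD3D had 34 counts in 11 cells and CD3E had 9 in 2 cells. TRAC and TRBC2 had 3 counts each, in 1 and 2 cells, and the split between TRBC1 and TRBC2 is uncertain. CD247 was at 0, which allows up to 26.0 CPM, and TRDC, TRGC1, TRGC2 and PTCRA had no transcript in the matrix. CPM scales the human counts of a library's human cells to a fixed total, and no level was divided by length, because a UMI marks a molecule.

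Human RNA outside human cells carried the same genes, which sets the background for these values. TRBC1 had a UMI in 20 of 251 human cells (7.97%, 4.93 to 12.0%) and in 12 of 590 mouse cells (2.03%, 1.06 to 3.53%), at median depths of 271 and 282.5. CD3G was found in 2.79% of human cells and 0.169% of mouse cells. CD3D was found in 4.38% (2.21 to 7.71%) and 2.88% (1.69 to 4.57%), and CD1E in 3.98% (1.93 to 7.20%) and 1.02% (0.374 to 2.20%), so the intervals of both genes overlapped. As a share of human counts, the receptor and CD3 list stood at 0.266% (0.191 to 0.361%) in mouse cells, 0.303% in mixed cells and 0.198% (0.187 to 0.210%) in barcodes outside the cells. The list was thus no richer in the human cells than in the human RNA of the rest of the library, where 1242 of its counts lay outside the cells. For reference, a human ribosomal protein UMI was present in 97.6% of human and 46.3% of mouse cells.

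A UMI of any of 15 T cell genes (the 14 markers and CD1E) was found in 55 of 251 human cells (21.9%, 17.0 to 27.5%) and in 46 of 590 mouse cells (7.80%, 5.76 to 10.3%). Detection went with depth. It was 13.1% in the 84 shallowest human cells, 20.2% in the 84 of middle depth and 32.5% in the 83 deepest, which had at least 388 counts. In 45 of the 55 cells a single marker gene was seen, and in 10 cells 2 or more. The 14 markers held 0.243% of the human counts (0.215 to 0.273%), a share that fell to 0.0838% (39 counts in 121 cells) at a purity of 95% and was 0.171% with the largest transcript of each gene.

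Other T cell lists held smaller shares of the human counts in human cells than in mouse cells. The shares were 0.235 and 0.643% for surface and thymocyte genes, 0.229 and 0.428% for signalling genes and 0.106 and 0.383% for transcription factor and recombination genes. In the surface and thymocyte list 6 of 20 genes had counts, 271 in all, led by CD99 (120 counts in 16 cells), CD1E (76 in 10 cells over 8 transcripts, the largest with 22), CD7 (33 in 3 cells) and CD1A (23 in 3 cells). The adhesion receptor CD2 had 17 counts in 6 human cells and 0 in mouse cells. CD7 had more counts in mouse cells, 65 in 14 cells, than in human cells. Over the human counts of each group it stood at 286 CPM in human cells, 4220 in mouse cells and 338 outside the cells. Its level in human cells was thus no higher than the background. CD8A and CD28 were at 0, and CD4, CD8B and CD5 had no transcript in the matrix.

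In the signalling list 9 of 20 genes had counts, 264 in all. PTPRC, the phosphatase CD45 of white blood cells, had 98 counts in 8 cells, with 64 in 1 cell. CORO1A of the actin cortex had 65 in 10 cells, the adaptor SH2D1A had 33 in 6 human cells and 0 in mouse cells, and ARHGDIB had 31 in 5 human cells, against 14 mouse cells. The receptor-proximal kinase LCK had 2 counts in 1 cell and ZAP70 had 0, while the barcodes outside the cells held 87 counts of LCK and 182 of ZAP70. The transcription factor and recombination list had 122 counts on 11 of 24 genes, led by LEF1 (40 counts in 6 cells), DNTT, the template-independent polymerase of receptor rearrangement (22 in 3 cells), RUNX1 (17 in 4 cells) and GATA3 and IKZF1 (10 each). These last genes rested on 3 or 4 cells. TCF7 had 1 count in human cells and 24 in 6 mouse cells.

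**Figure D3:**
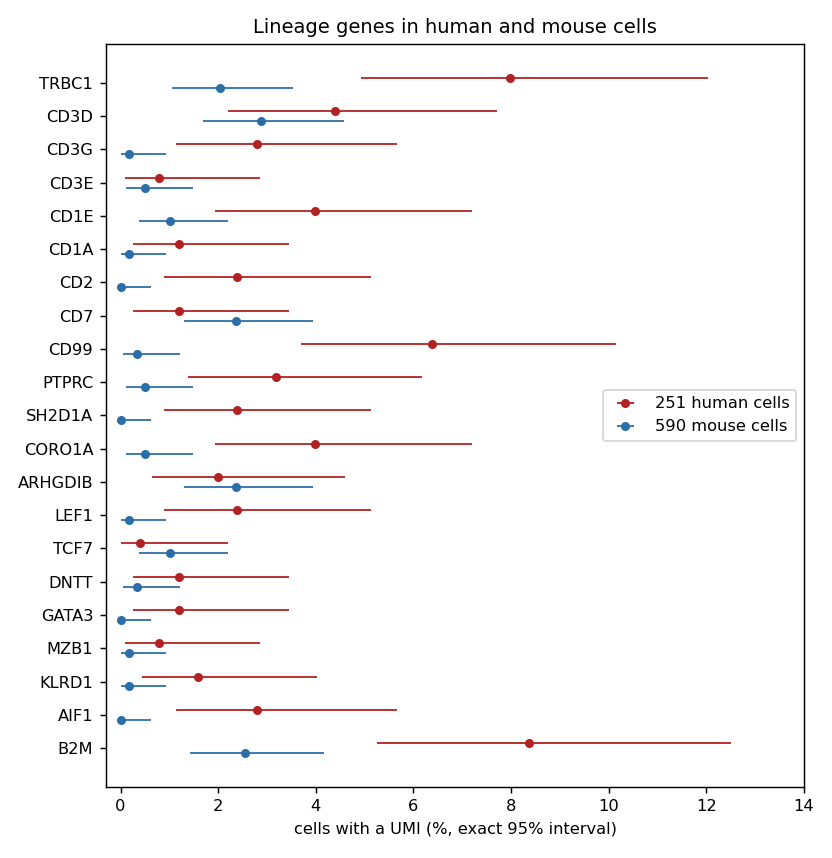
Percent of 251 human and 590 mouse cells with a UMI of each lineage gene, with exact intervals. TRBC1 lies at 7.97 and 2.03% and B2M at 8.37 and 2.54%, CD7, TCF7 and ARHGDIB lie higher in mouse cells, and the difference for human genes in general is set by the 90% rule.

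Variable and joining segments named a small set of receptor genes. TRBV12-3 had 18 counts in 11 human cells and 266 over all barcodes, and TRBV12-4, identical to it over the end of the exon, had 8 and 42. TRAV8-4 had 3 and 19, TRBJ1-3 had 3 and 52, TRAJ3 had 1 and 10, and TRBJ2-3 had 1 and 1. No other variable segment of the alpha or beta locus had a count in human cells. No IGLV or IGKV segment had a count at any barcode of the library, and 1 count outside the human cells lay on IGHV3-19. In the 10X human cells IGLV segments had 2608 and 5518 counts at 30 and 35 cycles, 2535 and 5169 of them on IGLV2-14. TRAV and TRBV segments had 0 there. Gamma chain segments (TRGV) went the other way, with 10 and 16 counts in the 10X human cells. They had 0 in the human cells here and 17 over all barcodes.

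Plasma cell genes had few counts in the human cells, and only 10 of the 20 genes on the list had a transcript in the matrix. Of 20 genes on the list, MZB1, a chaperone of antibody assembly, had 15 counts in 2 cells with 12 in 1 of them, HERPUD1 of the unfolded protein response had 3 in 1 cell and FKBP11 had 1. The list held 0.0165% of the human counts (0.00993 to 0.0257%). Its share of the human counts was 0.0519% in mouse cells (8 counts) and 0.0812% in barcodes outside the cells (509 counts). The 16 plasma cell markers held 0.0130% (0.00728 to 0.0215%), with a UMI in 2 of 251 cells. Of the 16, 12 had no transcript in the matrix, which covers 323970 barcodes. Immunoglobulin constant genes had no transcript in the matrix either, so their level was not read from these counts.

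Genes of other lineages were sparse as well. AIF1, a macrophage-associated actin binder, had 21 counts in 7 human cells and 0 in mouse cells. KLRD1, the CD94 receptor of NK cells, had 22 counts in 4 human cells and 2 in 1 mouse cell. Barcodes outside the cells held 129 counts of AIF1 and 346 of KLRD1. Over the human counts of each group, AIF1 stood at 182 CPM in human cells and 206 outside, and KLRD1 at 191 and 552. The B cell list had 1 count, on IGLL1, the epithelial and fibroblast list had 1, on DCN, and the MHC class II and erythroid lists had 0. Of the MHC class II list only HLA-DMA had a transcript in the matrix, and of the erythroid list no gene had one. In the MHC class I list B2M, the light chain, had 79 counts in 21 human cells (8.37%) and 15 mouse cells, HLA-B had 9 and HLA-E had 2.

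The other libraries gave the same genes for comparison. With 30 and with 35 cycles of Drop-seq, the human cells had 50 and 64 counts of TRBC1, 73 and 69 of CD3G, 82 and 119 of CD1E, 9 and 17 of CD3D, and 51 and 53 of PTPRC. All 5 genes were at 0 in the human cells of both 10X libraries. The 14 T cell markers had 2 and 0 counts there and the 16 plasma cell markers had 10845 and 20827. The T cell receptor and CD3 list had 0 stored counts in both, and the surface and thymocyte list had 2 and 4. The signalling list, with 264 here, had 94 and 121 there. The transcription factor and recombination list, with 122 here, had 21 and 29. ARHGDIB had 31 counts here and 42 and 77 in 10X, and RHOH had 21 here and 24 and 20. Among single genes, IGLL5 had 7467 and 15219 counts in 10X, IGLC1 2294 and 4735, the integrin ITGB7 1345 and 3137, JCHAIN 392 and 310 and PRDM1 392 and 134, each with 0 in the human cells of every Drop-seq library. IGLL5 and IGLC1 share sequence, so their split is uncertain. IGLL5, IGLC1, ITGB7 and JCHAIN had no transcript in the matrix of the 25-cycle library. The counts of lineage genes in human cells thus differed between the platforms under the same label, and platform and cells cannot be told apart in this design. Stored values started at 2 in 10X, and TMSB4X, with 780 counts here, had 12 in each 10X library. A 0 of a T cell gene in 10X was therefore not read as absence.

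**Figure D4:**
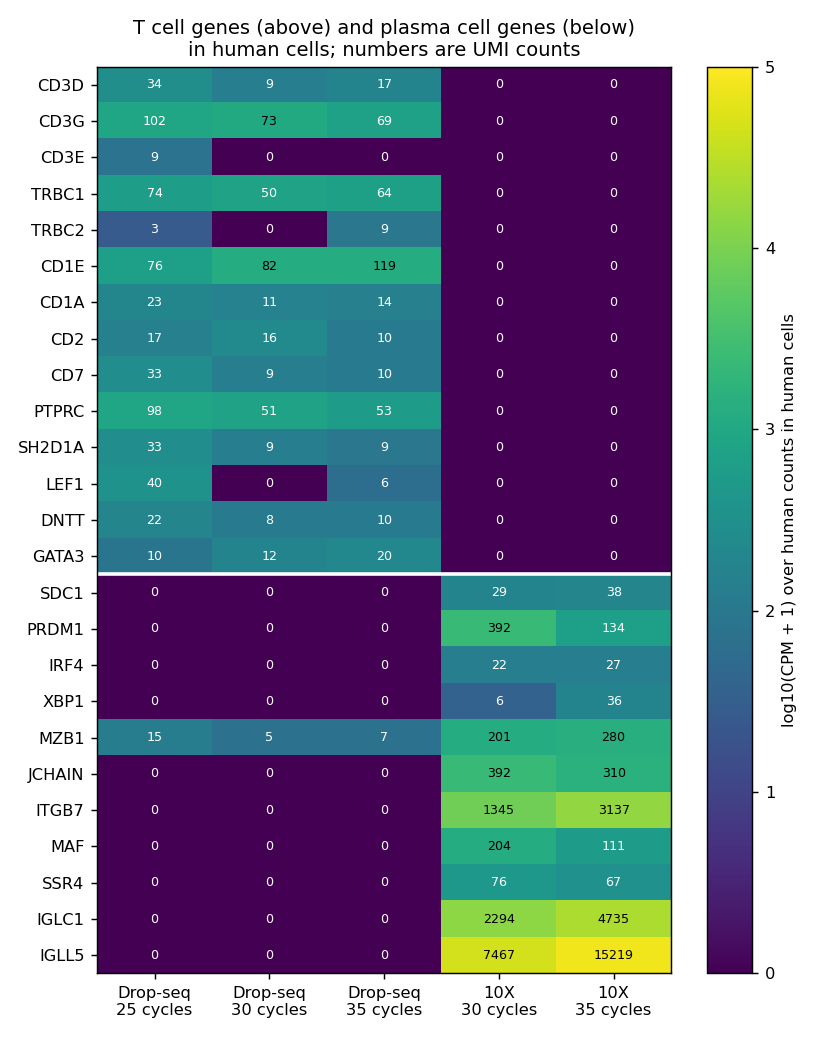
UMI counts (numbers) and log10(CPM + 1) over human counts (colour) of T cell and plasma cell genes in the human cells of 5 libraries, values as stored. Genes above the white line have 0 in 10X and counts in this library (CD3E, TRBC2 and LEF1 are at 0 in another Drop-seq library), and of those below it only MZB1 has counts in Drop-seq (15, 5 and 7). Other T cell genes such as ARHGDIB and RHOH, not drawn, had counts in 10X.

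The Drop-seq libraries were not independent of each other. Of the 251 barcodes, 135 were also human cells at 30 cycles (53.8% of the 251, 81.3% of the 166 human cells there) and 133 at 35 cycles, and none was a mouse or mixed cell there. No barcode was a cell in 10X. Among the 135, TRBC1 had a UMI in 11 at 25 cycles and in 5 at 30 cycles, all 5 of them among the 11.

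Levels were then compared across all human genes with at least 50 counts over both libraries of a pair. Values below 3 were left out of each, because stored values started at 1 here, at 2 in 10X and at 3 for Drop-seq with more cycles. That kept 80373 of the 115245 human counts here (69.7%), every count of the later Drop-seq libraries, and 29.7 and 42.4% in 10X. A gene was called at a 4-fold difference of CPM, a rule of size.

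Against Drop-seq at 30 cycles 50 of 600 genes were called (8.33%), 29 higher (4.83%) and 21 lower here (3.5%). Against 35 cycles 55 of 686 were called (8.02%), 24 higher (3.5%) and 31 lower (4.52%). With the largest transcript only, these numbers were 2 of 215 and 5 of 255. No ribosomal protein gene was called among 76 tested in either pair, with median log2 ratios of 0.01 and 0.07, and no mitochondrial gene among 11 and 12. CD3G had a log2 ratio of 0.04 (-0.42 to 0.51) and TRBC1 of -0.02 (-0.59 to 0.55) against 30 cycles, and neither was called against 35 cycles. CD1E was lower at -1.06 (-1.61 to -0.53) and -1.11 (-1.64 to -0.62), under the 4-fold limit. Shared barcodes make these pairs repeated reads of partly the same cells.

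Against 10X most genes were called, 344 of 412 at 30 cycles (83.5%). Of the 412 tested, 282 were higher here (68.4%) and 62 lower (15%). At 35 cycles 346 of 411 were called (84.2%), with 286 of the 411 higher (69.6%) and 60 lower (14.6%). The median log2 ratio over all genes was 5.999 and 5.19, and 222 and 192 of the tested genes were listed at 0 in 10X. Scaled to that median, the calls were 26 higher and 175 lower at 30 cycles and 122 higher and 159 lower at 35 cycles, so directions depended on the scaling. They also depended on the low values: as stored, 839 and 838 genes were tested, the median log2 ratio was 1.10 and 1.16, and the calls were 346 higher and 248 lower at 30 cycles and 343 higher and 223 lower at 35 cycles. Gene and list values are therefore given both ways. Genes that every cell uses were among those listed at 0, so a 0 in 10X was not read as absence.

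Among genes called higher in both 10X pairs, the 10 highest by the ratio at 30 cycles were TMSB4X and 9 ribosomal protein genes. All 10 had 0 counts in 10X at 30 cycles once values below 3 were left out. In that pair they passed the minimum of 50 counts only through this library and could only be higher here. RPS19 had 1024 counts here and 0 in both 10X libraries once values below 3 were left out. As stored it had 1234 counts here and 50 and 60 in 10X, log2 ratios of 5.10 (4.71 to 5.55) and 5.14 (4.78 to 5.55). The 0 in 10X thus came from the limit on low values, and no bound was taken from it. As stored, TMSB4X had 780 counts here and 12 in each 10X library, log2 ratios of 6.46 (5.70 to 7.47) and 6.75. RPL13A had 1163 counts, and 64 and 46 in 10X, with log2 ratios of 4.66 and 5.44. RPS15, RPL34, RPL21 and RPL26 had stored log2 ratios of 4.29, 6.13, 4.86 and 4.65 at 30 cycles and of 4.67, 5.46, 5.93 and 3.96 at 35 cycles. RPS6, RPL19 and RPL15 had 0 counts at 30 cycles and 42, 60 and 18 at 35 cycles after the limit, where their log2 ratios of 3.93, 3.05 and 4.70 were under the median of all genes. Of 73 and 72 ribosomal genes tested, 59 and 61 were higher and 2 and 2 lower, against 68.4 and 69.6% of all genes called higher. Their medians of 6.23 and 5.52 were close to those of all genes. As stored, 57 of 77 and 55 of 78 were higher, against 346 of 839 and 343 of 838 of all genes. The medians as stored were 3.03 and 3.35, against 1.10 and 1.16 for all genes. After scaling to the median, with values below 3 left out, 17 were higher and 24 lower at 30 cycles, and 27 higher and 17 lower at 35 cycles.

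Of the 10 lowest ratios, 4 belonged to antibody genes. All 10 genes had 0 counts here once values below 3 were left out. They passed the minimum of 50 counts only through 10X and could only be lower here. IGLL5, IGLC1, ITGB7 and JCHAIN had no transcript in the matrix of this library, so their bounds take a missing transcript as 0. IGLL5 had 0 counts here and 7467 and 15219 stored counts in 10X. It was at least 1771-fold and 2933-fold lower, with 0 taken as up to 3 counts over the human cells and the smaller bound given of those with and without values below 3. IGLV2-14 (at least 601-fold and 996-fold lower), IGLC1 (at least 544-fold and 913-fold) and ITGB7 (at least 319-fold and 591-fold) followed. JCHAIN, which joins antibody units, had 392 and 310 stored counts in 10X and was at least 92.6-fold and 38.6-fold lower. The others were TBL1XR1 of the NCoR corepressor complex, ZNF740, TIGD1, the p53 regulator MDM2 and NABP1. As stored, TIGD1 had 7 counts here, TBL1XR1 had 6, NABP1 had 5, MDM2 had 1 and ZNF740 had 0.

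Lists whose genes have counts in both libraries could be compared further. Of 12 mitochondrial-genome genes, 11 and 10 were lower (against 15% and 14.6% of genes called lower), with medians of -3.51 and -3.58. As stored, 8 of 12 and 9 of 13 were lower, against 248 of 839 and 223 of 838 of all genes, with medians of -2.47 and -2.76. The list held 2.56% of the stored human counts here and 10.7 and 13.2% in 10X, which became 3.08, 25.6 and 25.4% once values below 3 were left out. MT-CO1 was called at 30 cycles with a log2 ratio of -2.56 (-2.69 to -2.44), and not as stored, at 6707 CPM here and 18714 CPM in 10X with a log2 ratio of -1.48 (-1.60 to -1.37). MT-CYB, at 4434 and 5038 CPM as stored, had a log2 ratio of -0.18 (-0.35 to -0.02) there. Of 3 endoplasmic reticulum genes tested, 1 and 2 were lower, with SSR2, of the translocon, at -3.57 and -4.32, and at -4.64 and -5.06 as stored. For lineage genes the minimum of 50 counts fixed the direction. The 7 and 4 plasma cell genes and the immunoglobulin constant genes tested passed it mainly through 10X and were lower here, with median log2 ratios of -8.50 and -7.76 for plasma cell genes. CD3G and TRBC1 passed it through this library, with 0 counts in 10X, and the other 9 genes of their list were not tested.

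**Figure D5:**
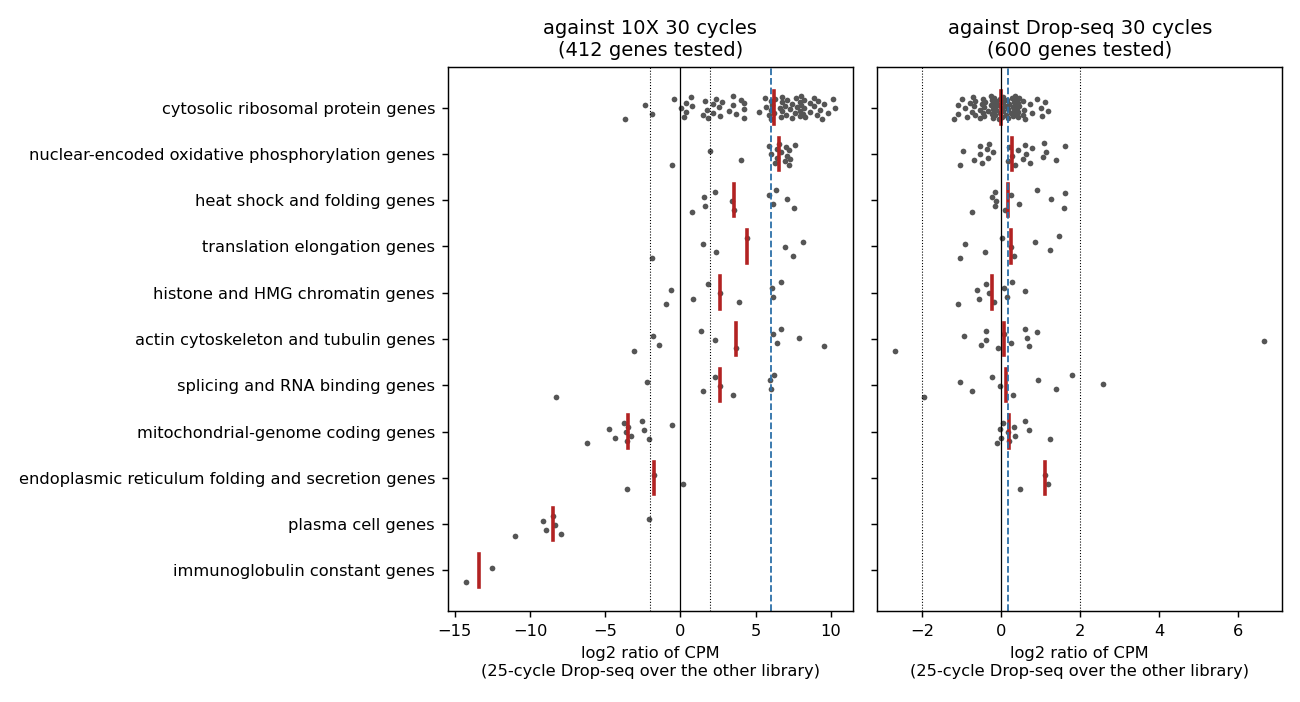
Log2 ratios of CPM (25-cycle Drop-seq over the other library, values below 3 left out) of the tested members of 11 lists, against 10X at 30 cycles (left, 412 genes) and Drop-seq at 30 cycles (right, 600 genes). Red bars are list medians, the dashed line is the median of all genes (5.999 and 0.18), and dotted lines mark 4-fold. Plasma cell, immunoglobulin and mitochondrial genes lie left of 0 against 10X, and most lists lie around 0 against Drop-seq.

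With values as stored, the human cells also differed from 10X in the kind of transcript counted. The smallest stored value was 1 here, 2 in 10X and 3 in the later Drop-seq libraries. The effect of these limits on the lengths and shares below was not tested. Weighted by counts, the median annotated length of a transcript was 1369 bases, against 2239 and 1635 in 10X. The later Drop-seq libraries had medians of 1426 and 1429. Transcripts of 5000 bases or more held 7.96% of the matched counts here and 23.4 and 16.7% in 10X. Transcripts of the mitochondrial genome held 2.77% here, against 11.5 and 14.1% in 10X. By annotation 73.6% of the human counts lay on protein-coding transcripts, 7.54% on transcripts marked for nonsense-mediated decay and 6.30% on retained-intron transcripts. Transcripts of these last classes often overlap the coding transcripts of the same genes, so their shares are uncertain.

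Transcripts typed as long non-coding RNA by the annotation held 0.194% of the human counts. A list of 15 such genes, MALAT1 and NEAT1 among them, had no matched transcript in the matrix of this library. The level of this class was therefore not read from these counts. The genes of this type with the most counts were ENSG00000291015 (26 counts in 3 cells), CCDC144BP (25 in 3 cells) and ENSG00000291207 (22 in 2 cells), each with most of its counts in 1 cell.

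Genes per cell were compared at 200 counts with values below 3 left out of all libraries. The median was 23 genes over 100 human cells, with 151 shallower cells left out. It was 28 over 110 cells in Drop-seq at 30 cycles, 29.5 over 146 at 35 cycles, 39 over 25 in 10X at 30 cycles and 34.5 over 68 at 35 cycles. With values as stored the median here was 47 genes over 173 cells, against 56 without thinning.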

How the data were processed

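Single-cell RNA of mixed human and mouse cells was measured in 6 samples, 5 of which had a matrix; the last held only read numbers and was not used. The matrices deposited by the authors hold UMI counts as whole numbers, by barcode and by Ensembl transcript, not normalized. Reads were base called with Guppy and mapped with minimap2 to transcripts (hg38 for human, per the labels); which UMI method and which low-value filter made this file is not given in the sources used here. Doublets were not called, and human doublets remain.

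Species came from the transcript prefix. Of 28533 human transcripts in the 25-cycle matrix, 25940 (90.9%) matched GENCODE release 44 without version. Gene counts summed transcripts. XIST, TSIX and genes of chromosome Y were left out. Depth was 141 to 5859 counts per human cell. CPM ratios used 0.5 pseudocounts and exact conditional binomial intervals. Named genes were the 25 largest counts, leading list members, the 10 highest and lowest 10X ratios, the 10 largest Fano factors, the top non-coding RNAs and segments. Members and lists were chosen with earlier results of these data known. Python 3.11.15, numpy 2.4.6, pandas 2.3.3, scipy 1.17.1 and matplotlib 3.10.9 were used.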

Additional observations from a re-analysis of the deposited data

How the results depend on the processing

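No paired analysis was possible because each group held 1 library. The number of human cells was 121 at a purity of 95%, 133 among the 500 barcodes with the most counts and 135 among barcodes that were also cells at 30 cycles. The T cell marker share of 0.243% became 0.368% at a purity of 80%, 0.0838% at 95%, 0.446% with values below 3 left out and 0.171% with the largest transcript. The plasma cell marker share of 0.0130% became 0% at 95%, 0.00319% in the 500 barcodes, 0.0250% with values below 3 left out, 0.00335% in barcodes shared with 30 cycles and 0.00260% with the largest transcript, on 0 to 24 counts. Without the 10 deepest human cells, chosen after seeing the data, the shares were 0.231% and 0.0171%.

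Genes called against 10X at 30 and 35 cycles numbered 594 and 566 with values as stored, 773 and 800 at a minimum of 20 counts, 84 and 83 at 200, 185 and 199 at a purity of 95%, and 137 and 132 with the largest transcript. Scaling to the median of ratios gave 201 at 30 cycles. Against Drop-seq at 30 and 35 cycles they numbered 195 and 245 at a minimum of 20, 0 and 1 at 200, 93 and 129 at 95%, and 2 and 5 with the largest transcript. A higher minimum tests fewer genes; the other causes were not tested. Median scaling turned the log2 ratios of RPS6, RPL19 and RPL15 against 10X at 35 cycles to -1.27, -2.14 and -0.49. A further 79 values of named genes under alternatives moved beyond their counting interval with the same direction. Genes per cell were 33 at 100 counts and 75.5 at 400. The depth of single cells limits any value per cell.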
